A study of Mus musculus with 5 samples.

Results

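The genes described here are 6 acyl-CoA thioesterase genes (Acot1, Acot2, Acot7, Acot9, Acot11 and Acot13), the 2 uncoupling protein genes Ucp2 and Ucp3, and Angptl4. They were taken by gene symbol from the expression table of tibialis anterior (TA) muscle, a fast-twitch muscle of the lower leg, and make 9 of its 17015 genes. The table compares 3 libraries of WT control mice with 2 libraries labelled skmNrip1-/-, in which the coregulator RIP140, encoded by Nrip1, was to be removed from skeletal muscle. The study describes groups of equal size for this comparison, and any further skmNrip1-/- library was not analysed here. All mice were 8-week-old sedentary males that carried the floxed Nrip1 allele (Nrip1 fl/fl) on a C57BL/6J background. The skmNrip1-/- mice also carried Cre recombinase driven by the myogenin promoter, from C57BL/6JN mice, which acts in differentiating muscle cells from before birth. The WT control mice were littermates without Cre, so effects of Cre itself and of the deletion cannot be told apart, and neither can early and late effects. The labels number the libraries as replicates without naming the animals, so the p-values measure only the spread between these libraries.

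Acyl-CoA thioesterases cut activated fatty acids (acyl-CoAs) into free fatty acid and coenzyme A, and different family members do so in the cytosol, the mitochondrial matrix or at the mitochondrial surface. Uncoupling proteins are carriers of the inner mitochondrial membrane, and Ucp3 is the family member known for its expression in skeletal muscle. Angptl4 is a secreted inhibitor of lipoprotein lipase, the enzyme that frees fatty acids from circulating triglyceride for uptake by muscle. Several of these genes are known targets of the fatty acid-activated PPAR nuclear receptors, with which RIP140 is known to interact.

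Expression is given as FPKM, fragments scaled to transcript length and between libraries, so levels of different genes are compared per length. The median ratio of a library to the geometric mean of each gene was 1.00171 in every library. The libraries were thus already scaled to a common median ratio and not to a common total. For a test, log2(FPKM + 0.1) was fitted with limma over the 12148 genes whose mean reached 0.5 FPKM, and a gene was called at a Benjamini-Hochberg adjusted p of 0.05 or less with a fold change of at least 1.2. Log2 fold changes are skmNrip1-/- over WT control on that log2(FPKM + 0.1) scale, which understates the change of low genes. The fragments behind a unit of FPKM could be read from the low FPKM values of genes with 1 transcript. Of these values, 99.4% to 99.8% per library lay within 0.1 of a whole number of fragments. Relative to WT control replicate 1, the other libraries had between 0.818 and 1.104 times as many fragments per unit of FPKM. Summed FPKM was higher in both libraries labelled skmNrip1-/- (1288040 and 1286250) than in the WT control libraries (969144 to 1144710).

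Nrip1 went against its label. Its level was 4.64, 7.69 and 6.55 FPKM in the WT control libraries and 25.3 and 22.5 FPKM in the libraries labelled skmNrip1-/- (log2 fold change 1.94, SE 0.21, limma adjusted p = 0.0261). The study describes the deleted part as the last exon of Nrip1, which holds both the start and the stop codon. Its validation of these mice used Nrip1 expression and RIP140 protein of gastrocnemius muscle and heart. Gene-level values cannot separate the deleted exon from the rest of the transcript, so the labels could not be checked this way. Each direction below rests on them, and the cause of the higher Nrip1 level in TA was not tested. RIP140 is known as a repressor of fatty acid oxidation genes. Of 27 tested PPAR target genes, given below, 24 had log2 fold changes above 0 in the libraries labelled skmNrip1-/-, against 49.9% of all genes. That list was chosen with earlier results of these data known, so it is no separate check of the labels. The 3 most abundant skeletal muscle markers, Tnnt3, Acta1 and Tnni2, lay between 10991 and 26288 FPKM in every library, so the defining genes of the labelled tissue were present.

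The promoters of the 2 neighbouring pairs, Ucp3 with Ucp2 and Acot2 with Acot1, are printed. In FPKM, the groups did not overlap for the first gene of each pair and did for its neighbour. Each is the 250 bases before the start that RefSeq gives (GRCm38.p6, plus strand), 5′ to 3′. Capitals mark AGGTCA, the hexamer that nuclear receptors of the PPAR and estrogen-related families are known to bind, searched on both strands as AGGTCA and TGACCT. The windows are chr7:100472741-100472990 for Ucp3, chr7:100493108-100493357 for Ucp2, chr12:83987611-83987860 for Acot2 and chr12:84009252-84009501 for Acot1.
Ucp3: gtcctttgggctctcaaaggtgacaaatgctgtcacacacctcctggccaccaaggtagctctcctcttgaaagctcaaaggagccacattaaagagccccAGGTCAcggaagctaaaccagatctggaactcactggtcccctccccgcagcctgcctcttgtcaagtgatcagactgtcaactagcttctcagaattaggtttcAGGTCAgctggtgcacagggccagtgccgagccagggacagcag
Ucp2: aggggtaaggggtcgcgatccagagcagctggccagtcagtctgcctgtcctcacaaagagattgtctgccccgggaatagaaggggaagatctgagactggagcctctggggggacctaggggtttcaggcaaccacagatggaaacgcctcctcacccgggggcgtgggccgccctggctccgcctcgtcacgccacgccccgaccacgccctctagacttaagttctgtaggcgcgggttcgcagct
Acot2: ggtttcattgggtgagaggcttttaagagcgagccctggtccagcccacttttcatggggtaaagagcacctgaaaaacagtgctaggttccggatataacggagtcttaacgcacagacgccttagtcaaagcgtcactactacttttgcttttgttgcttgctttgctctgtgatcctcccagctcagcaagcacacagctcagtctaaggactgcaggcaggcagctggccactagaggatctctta
Acot1: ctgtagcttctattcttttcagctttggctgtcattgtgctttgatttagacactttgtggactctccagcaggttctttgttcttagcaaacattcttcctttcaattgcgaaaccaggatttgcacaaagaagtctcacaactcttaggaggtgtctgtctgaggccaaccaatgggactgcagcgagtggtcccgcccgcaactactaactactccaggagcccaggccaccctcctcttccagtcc
The Ucp3 window held the hexamer 2 times, at 149 to 144 and at 44 to 39 bases before the start. None of the other 7 windows of the members held it (7 of the 9 genes had a window, in 8 windows, and Acot13 and Angptl4 had none). Of 32851 mouse promoter windows of the same length, 14.0% held at least 1 such hexamer and 1.36% held 2 or more. A match of letters is a description and not a binding site, and its absence says only that these letters are not in this window.

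In GRCm38 (GENCODE M21), Ucp3 lies at chr7:100472990-100486432 and Ucp2 at chr7:100493337-100502020, both on the plus strand and 6905 bp apart. Acot2 (chr12:83987861-83993873) and Acot1 (chr12:84009490-84018371) are 15617 bp apart on the plus strand, in a cluster that goes on with Acot4, Acot3, Acot5 and Acot6. The other members stand alone: Acot7 at chr4:152178134-152271855 (plus), Acot11 at chr4:106744555-106804998 (minus), Acot9 at chrX:155262443-155297654 (plus), Acot13 at chr13:24817948-24831540 (minus) and Angptl4 at chr17:33773750-33781830 (minus). Members that share sequence with other genes have less certain values, since the authors' estimates must divide shared reads. Of the 31-base stretches in the longest coding transcript, Acot1 shared 40.1% with other genes and Acot2 shared 38.0%, mostly with each other (28.8% of the Acot1 and 29.8% of the Acot2 stretches). Stretches as long as a read, 150 bases, were shared with each other in 9.84% of Acot1 and 10.2% of Acot2. Acot9 shared 36.9% of its 31-base but none of its 150-base stretches with Acot10, Acot11 shared 12.3% of its 150-base stretches with the overlapping Fam151a, and Ucp2 shared 4.06% of them with the overlapping Dnajb13. Acot7, Acot13 and Ucp3 shared no stretch of either length.

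The levels of the 9 genes spanned more than 2 orders of magnitude in WT control TA. Acot13 was the most abundant at a mean of 112 FPKM ± 15.5 (SD, n = 3), followed by Ucp3 at 63.8 ± 21.9 and Acot7 at 13.2 ± 0.417. Acot9 (10.5 ± 1.1), Ucp2 (10.5 ± 2.36) and Acot2 (7.73 ± 1.94) came next, and neither Acot9 and Ucp2 nor Ucp2 and Acot2 differed beyond their spread between libraries. Acot11 (3.17 ± 0.605) stood apart from both its neighbours in this order. Angptl4 (0.672 ± 0.430) and Acot1 (0.269 ± 0.0549) were lowest and overlapped each other. Of the 9 genes, 8 passed the minimum of 0.5 FPKM, and Acot1 did not.

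None of the 8 tested members was called in either direction by limma (adjusted p from 0.244 to 0.958). Of all 12148 genes, 0.37% were called higher (45 genes) and 0.0823% lower (10 genes), or 0.453% in all. At an unadjusted limma p of 0.05 or less, 4 members were higher in the libraries labelled skmNrip1-/- (Acot2, Acot11, Acot7 and Ucp3) and 0 were lower, where 6.57% of all genes were higher and 5.33% lower (11.9% in all). The same 4 members were those whose 2 skmNrip1-/- libraries lay above all 3 WT control libraries, which held for 15.8% of all genes, and 0 lay below all of them (14.4% of all genes). The median log2 fold change was 0.41 over the 8 tested members and -0.00 over all genes tested, with 7 members above 0 and 1 below (49.9% of all genes were above 0). The count of 4 members was 2 without WT control replicate 3, 1 without skmNrip1-/- replicate 2 and 2 without the intensity trend in limma. Rescaled to TPM, where each library sums to the same total, the median of all genes moved to -0.29, the calls over all genes went from 45 higher and 10 lower to 30 higher and 63 lower, and the count of members was 0. On that scale the groups overlapped for Acot7, Acot11 and Ucp3, and for Acot2 they did not. The log2 fold changes there were 0.49 for Acot2, 0.38 for Ucp3, 0.29 for Acot11 and 0.014 for Acot7. Relative to the shifted median, Acot2 was at 0.78, Ucp3 at 0.67, Acot11 at 0.58 and Acot7 at 0.31. Rescaling to TPM moves all genes by nearly the same amount, so these values had to come out close to those before rescaling.

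**Figure D1:**
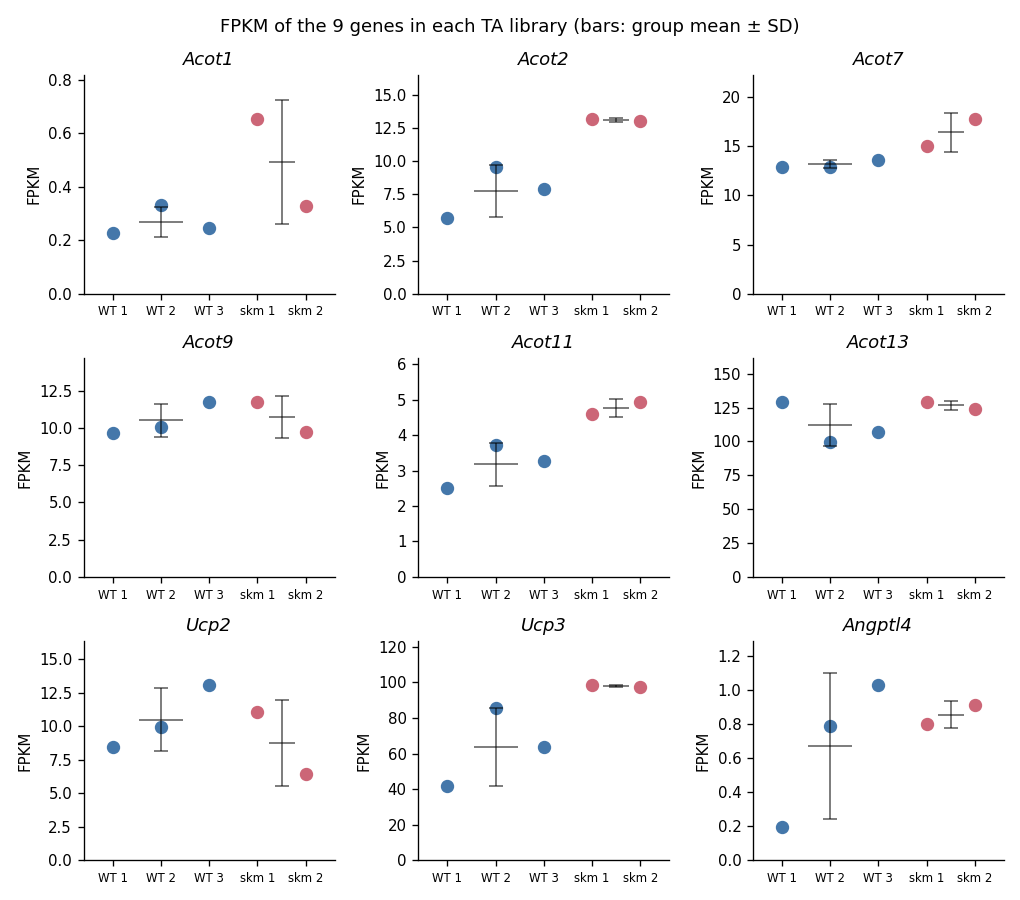
FPKM (linear axis from 0) of each of the 9 genes in the 3 WT control libraries (WT, blue points) and the 2 libraries labelled skmNrip1-/- (skm, red points), with group mean ± SD in black. For Acot2, Acot7, Acot11 and Ucp3 both red points lie above every blue point, and for the other 5 genes the groups overlap.

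Acot2 encodes the mitochondrial matrix thioesterase for long-chain acyl-CoAs. Its level was 5.71, 9.57 and 7.92 FPKM in the WT control libraries and 13.19 and 13.004 FPKM in the libraries labelled skmNrip1-/-. The groups did not overlap, the skmNrip1-/- libraries lay close together, and WT control replicate 1 was the lowest. The ratio of the means was 1.69, and the log2 fold change of 0.78 (SE 0.21, 95% interval 0.28 to 1.29) had an unadjusted limma p of 0.00851, the lowest among the members, and an adjusted p of 0.244. Acot2 has 1 annotated transcript, and its values came from about 532, 979 and 739 fragments in WT control and 996 and 1172 in the skmNrip1-/- libraries.

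Acot1 is the cytosolic counterpart of Acot2 and the lowest member. It was at 0.227, 0.331 and 0.247 FPKM in WT control and at 0.655 and 0.328 FPKM in the libraries labelled skmNrip1-/-, so only replicate 1 of the latter stood above the WT control range. These values rest on about 22.0 to 51.5 fragments per library if all came from its longest coding transcript, and on 3.46 to 7.74 if all came from its shortest. With no minimum on the mean FPKM, the log2 fold change was 0.64 with a limma adjusted p of 0.572. The Acot2 to Acot1 ratio was 25.1, 28.9 and 32.0 in WT control and 20.2 and 39.6 in the skmNrip1-/- libraries, so the mitochondrial form had the higher level in all 5 libraries. The log2 ratio differed between groups by 0.15 (exact permutation test over libraries, two-sided, p = 0.8, smallest possible p 0.2), and its direction turned to -0.25 without skmNrip1-/- replicate 2.

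Acot11 encodes a thioesterase with a lipid-binding START domain, known from brown fat. It was at 2.52, 3.72 and 3.28 FPKM in WT control and at 4.58 and 4.94 FPKM in the libraries labelled skmNrip1-/-, without overlap. The log2 fold change was 0.59 (SE 0.18, 95% interval 0.15 to 1.02, unadjusted limma p of 0.0162, adjusted p = 0.293). Acot7, a cytosolic thioesterase best known from neurons, was at 12.9, 12.9 and 13.7 FPKM in WT control and at 15.02 and 17.8 FPKM in the skmNrip1-/- libraries. Its WT control libraries were the closest to each other of any member, and the groups did not overlap (log2 fold change 0.31, SE 0.12, 95% interval 0.03 to 0.59, unadjusted limma p of 0.0337, adjusted p = 0.370). Without skmNrip1-/- replicate 2, its highest library, the log2 fold change of Acot7 was 0.19, and after rescaling to TPM it was 0.014.

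Acot13, a small thioesterase that associates with mitochondria, made up most of the summed thioesterase level, and its groups overlapped. Its level was 129, 99.3 and 107 FPKM in WT control and 129 and 124 FPKM in the libraries labelled skmNrip1-/-. WT control replicate 1 was the highest of the WT control libraries, where it was the lowest for Acot2 and Acot11. It was level with skmNrip1-/- replicate 1 (129.3 and 129.0 FPKM). The log2 fold change was 0.19 (SE 0.14, 95% interval -0.14 to 0.51, limma adjusted p = 0.664), and -0.11 after rescaling to TPM. Acot9, a mitochondrial thioesterase, was at 9.69, 10.1 and 11.8 FPKM in WT control and at 11.7 and 9.75 FPKM in the skmNrip1-/- libraries, so the groups covered the same range. Its log2 fold change was 0.03 (SE 0.14, 95% interval -0.30 to 0.37, limma adjusted p = 0.958), and -0.02 without WT control replicate 1, -0.10 without skmNrip1-/- replicate 1 and -0.26 after rescaling to TPM.

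Summed over the 6 thioesterase genes, the level was 160, 136 and 144 FPKM in WT control and 174 and 170 FPKM in the libraries labelled skmNrip1-/-. Acot13 held between 73.1% and 80.6% of that sum in every library, with the highest share in WT control replicate 1. Without Acot13, the sums were 31.1, 36.6 and 36.8 FPKM in WT control and 45.2 and 45.8 FPKM in the skmNrip1-/- libraries. That sum includes Acot2, Acot7 and Acot11, whose groups were already apart in FPKM. With or without Acot13, the groups did not overlap in FPKM, and after rescaling to TPM they overlapped. Acot2 held 3.56%, 7.04% and 5.49% of the whole sum in WT control and 7.57% and 7.64% in the skmNrip1-/- libraries.

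**Figure D2:**
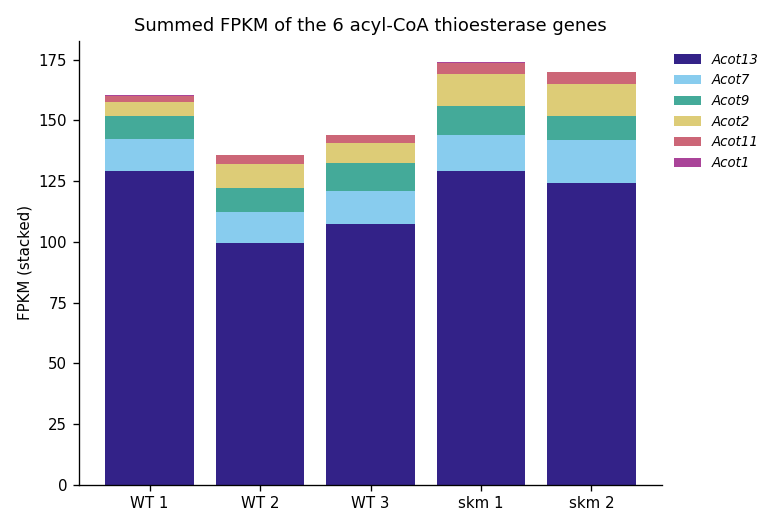
Stacked FPKM (bars from 0) of the 6 acyl-CoA thioesterase genes in the 3 WT control (WT) and 2 skmNrip1-/- (skm) libraries, 1 bar per library. Acot13 fills between 73.1% and 80.6% of each bar, and the part above it reaches 45.2 and 45.8 FPKM in the skm libraries and at most 36.8 FPKM in WT control.

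Ucp3 was the second most abundant member. Its level was 41.9, 85.7 and 63.8 FPKM in WT control and 98.6 and 97.7 FPKM in the libraries labelled skmNrip1-/-. The skmNrip1-/- libraries lay close together above all WT control libraries, which themselves spread over a range of 2.05-fold. The log2 fold change was 0.68 (SE 0.28, 95% interval 0.02 to 1.34, unadjusted limma p of 0.0452, adjusted p = 0.406), and 0.41 without WT control replicate 1, the lowest library.

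Ucp2, expressed in many tissues and in immune cells, overlapped between groups. It was at 8.45, 9.95 and 13.1 FPKM in WT control and at 11.0 and 6.46 FPKM in the libraries labelled skmNrip1-/-, which held both the lowest value and the second highest. The log2 fold change was -0.29 (SE 0.27, 95% interval -0.93 to 0.35, limma adjusted p = 0.750), and 0.10 without skmNrip1-/- replicate 2 but -0.67 without replicate 1. The 15 macrophage and leukocyte markers, led by Lyz2, C1qa and C1qc, gave summed levels of 24.7 to 45.8 FPKM in WT control and 29.0 to 38.5 FPKM in the skmNrip1-/- libraries. Their sum, like Ucp2, ordered the WT control libraries 1, 2, 3 from low to high and put skmNrip1-/- replicate 1 above replicate 2, while 0 of the 7 tested markers were called and 0 had an unadjusted limma p of 0.05 or less. None was at 0 in all libraries, and their part in the Ucp2 values was not tested. In bulk muscle, fewer cells of a type and less RNA per cell cannot be told apart.

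The Ucp3 to Ucp2 ratio was 4.95, 8.61 and 4.88 in WT control and 8.94 and 15.1 in the libraries labelled skmNrip1-/-. Both skmNrip1-/- libraries lay above all WT control libraries, though replicate 1 was only just above WT control replicate 2. The log2 ratio was higher by 0.97 (exact permutation test over libraries, two-sided, p = 0.2, the smallest that 3 against 2 libraries can give), and by 0.59 without skmNrip1-/- replicate 2, in which Ucp2 was lowest.

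**Figure D3:**
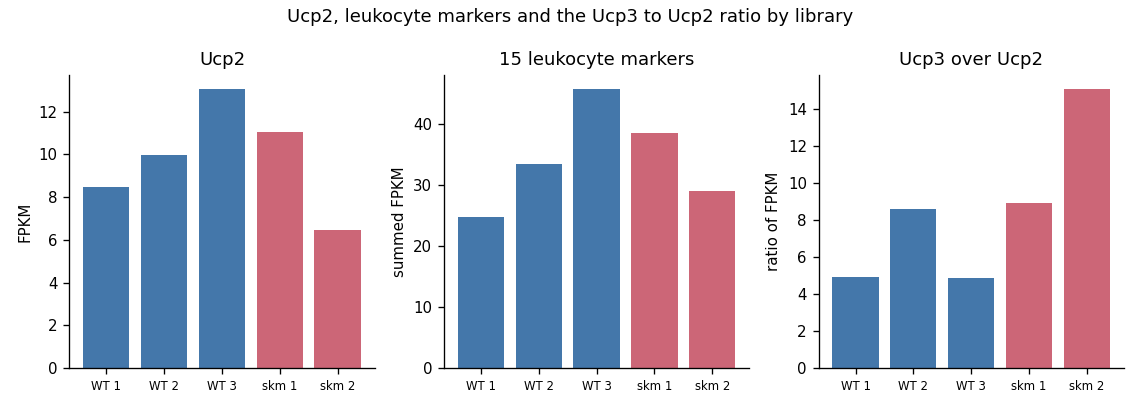
Bars from 0 for the 3 WT control (WT, blue) and 2 skmNrip1-/- (skm, red) libraries: Ucp2 in FPKM (left), the summed FPKM of 15 macrophage and leukocyte markers (middle) and the ratio of Ucp3 to Ucp2 FPKM (right). Ucp2 and the markers order the libraries of each group alike, and the ratio reaches 8.94 and 15.1 in the skm libraries and at most 8.61 in WT control.

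Angptl4 was low in TA and turned on 1 library. It was at 0.196, 0.789 and 1.03 FPKM in WT control and at 0.800 and 0.914 FPKM in the libraries labelled skmNrip1-/-, so the skmNrip1-/- values lay between the other two WT control values. WT control replicate 1 rested on about 29.0 fragments, where the other libraries had between 96.4 and 154. The log2 fold change was 0.52 (SE 0.57, 95% interval -0.84 to 1.87, limma adjusted p = 0.796), and -0.07 without that library but 0.90 without WT control replicate 3, the highest.

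**Figure D4:**
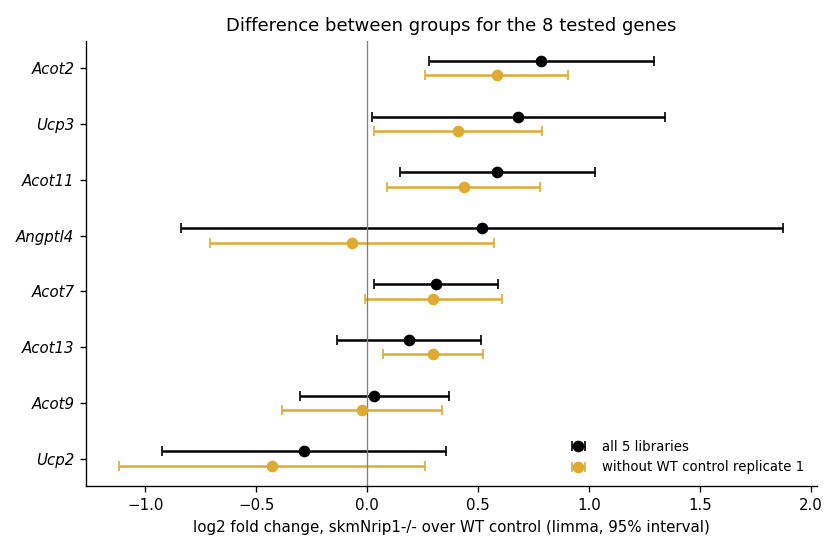
Log2 fold change of skmNrip1-/- over WT control (limma on log2(FPKM + 0.1), points) with its 95% interval (bars) for the 8 tested genes, from all 5 libraries (black) and without WT control replicate 1 (yellow). With all libraries, the whole intervals of Acot2, Ucp3, Acot11 and Acot7 lie above 0. Without WT control replicate 1, the interval of Acot7 reaches below 0 and that of Acot13 lies above it. Angptl4 moves from 0.52 to -0.07 without that library.

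WT control replicate 1 was the lowest of the 3 WT control libraries for 7 of the 9 genes, or 6 of the 8 tested, where this held for 36.5% of all genes tested. It was the lowest of all 5 libraries for 6 of the 9, or 5 of the 8 tested, against 26.4% of all genes. Without it, Acot2 was at a log2 fold change of 0.58, Acot11 at 0.44, Acot13 at 0.29 and Acot7 at 0.30, and limma called none of the 8, with 4 at an unadjusted p of 0.05 or less (Acot2, Acot11, Ucp3 and Acot13). The PPAR receptor genes Ppara and Ppard were also lowest in that library. Ppara was at 2.998, 8.36 and 7.22 FPKM in WT control and at 7.23 and 7.81 FPKM in the skmNrip1-/- libraries, and Ppard at 9.17, 19.2 and 22.5 FPKM against 16.9 and 19.2 FPKM. Both receptors were chosen for mention after their values were seen.

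Across the 5 libraries, 3 members kept nearly the same order. Pearson's r of log2(FPKM + 0.1) was 0.99 between Acot2 and Acot11, 0.97 between Acot2 and Ucp3 and 0.97 between Acot11 and Ucp3, against -0.10 between Ucp2 and Ucp3. These values describe 5 points that share libraries and the difference between groups, and 370 of 12140 other genes reached 0.95 with Acot2. The genes most like Acot2 were Tcaim, Sco1, a copper chaperone of cytochrome c oxidase, and Ogdh, a subunit of the 2-oxoglutarate dehydrogenase of the citric acid cycle (each r above 0.99). Ogdh was at 236, 323 and 296 FPKM in WT control and at 410 and 400 FPKM in the libraries labelled skmNrip1-/-. The genes most like Acot11 were Lifr, the receptor of leukemia inhibitory factor, Wdr35, a protein of cilia, and Ppargc1b, a coactivator of PPAR and estrogen-related receptors. Ppargc1b was at 3.39, 4.94 and 4.39 FPKM in WT control and at 6.30 and 6.49 FPKM in the skmNrip1-/- libraries (log2 fold change 0.60, limma adjusted p = 0.271).

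None of the other genes of these families was called. Of 17 other thioesterase genes, 8 were tested and 0 were called by limma, with 0 at an unadjusted p of 0.05 or less and a median log2 fold change of 0.05. They ran from Acot6, at 0.35 in the same cluster as Acot1 and Acot2, to Them6 at -0.20. Of 9 related carriers, 7 were tested and 0 were called, with 0 at an unadjusted limma p of 0.05 or less and a median of 0.16, from Slc25a4, the main adenine nucleotide carrier of muscle, at 0.22 to Slc25a30 at -0.13. Of 16 genes of the angiopoietin-like and lipoprotein lipase axis, 13 were tested and 0 were called, with a median of -0.05. Only Cd36, a fatty acid transporter, had an unadjusted limma p of 0.05 or less among them (90.1, 149 and 101 FPKM in WT control, 179 and 185 FPKM in the skmNrip1-/- libraries, log2 fold change 0.71, adjusted p = 0.279). Angptl6 was lowest at -0.48.

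Genes known as PPAR targets in muscle were listed without the members. Of 30, 27 were tested, 24 lay above 0, 19 were higher at an unadjusted limma p of 0.05 or less and 0 lower, and the median log2 fold change was 0.66. Of these, 2 rose past the adjusted threshold. Fabp3, a fatty acid-binding protein of muscle and heart, was at 483, 533 and 461 FPKM in WT control and at 1890 and 1841 FPKM in the libraries labelled skmNrip1-/- (log2 fold change 1.92, limma adjusted p = 0.00293). Hadhb, a subunit of the mitochondrial trifunctional protein of fatty acid oxidation, was at 173, 203 and 175 FPKM against 366 and 344 FPKM (0.95, limma adjusted p = 0.0378). Cpt1c was the lowest of the list at -0.23, with 0.49 to 0.65 FPKM. In FPKM, both skmNrip1-/- libraries lay above all WT control libraries for 22 of the tested genes (15.8% of all genes). They lay below all of them for 3, Plin2, Plin4 and Cpt1c (14.4% of all genes). Acot2 (0.78) lay above that list's median and Ucp3 (0.68) and Acot11 (0.59) near it, while Angptl4 (0.52), Acot7 (0.31), Acot13, Acot9 and Ucp2 lay below.

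Of 20 PPAR receptors and coregulators, all were tested and 0 were called by limma, with 3 higher (Ppargc1b, Esrra and Perm1) and 1 lower (Rxra) at an unadjusted p of 0.05 or less and a median of 0.16, from Esrrb at 0.63 to Rxrg at -0.41. Of 20 genes known to respond to fasting or glucocorticoid, 0 were called by limma, with 0 higher and 5 lower (Trim63, Cdkn1a, Ddit4, Cebpd and Cebpb) at an unadjusted p of 0.05 or less and a median of -0.21, from Pdk4 at 0.99 to Cebpb at -0.81. Pdk4, an inhibitor of pyruvate oxidation that is also in the PPAR target list, was at 78.2, 255 and 185 FPKM in WT control and at 272 and 345 FPKM in the skmNrip1-/- libraries, with WT control replicate 1 again lowest.

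**Figure D5:**
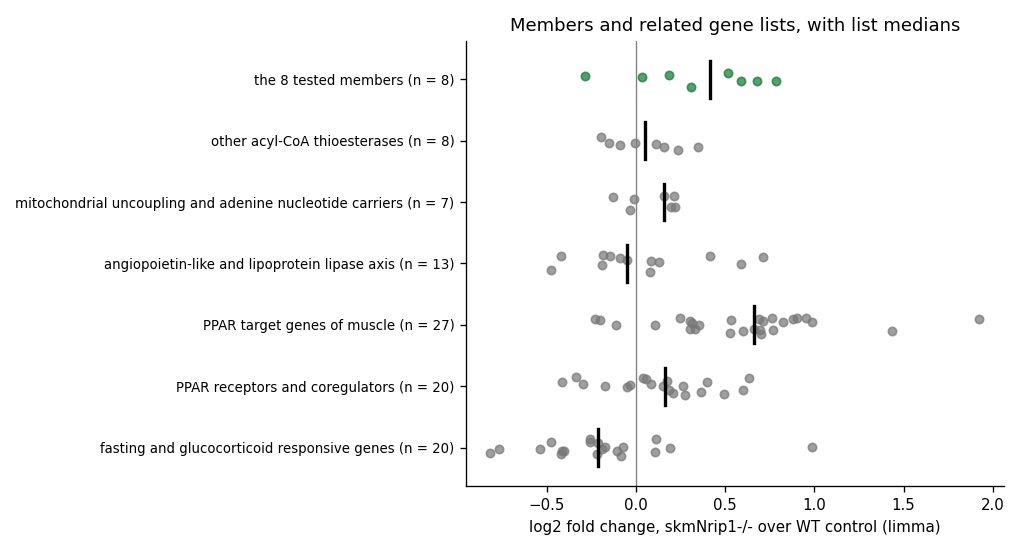
Log2 fold change of skmNrip1-/- over WT control (limma) for each tested gene, 1 point a gene (spread vertically only to separate points), for the 8 members (green) and 6 related lists (grey), with list medians as black lines. The members' median is 0.41, that of the PPAR targets 0.66, and those of the other lists lie between -0.21 and 0.16.

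Markers of other cells and fibers were set beside these values. The 11 slow and oxidative fiber markers, led by Mb, Myh2 and Myl3, summed to 4840 to 6609 FPKM in WT control and 8222 to 8279 FPKM in the skmNrip1-/- libraries, of which myoglobin (Mb) made up most. Of these 11, 0 were called by limma, 2 were higher (Myl2 and Mb) and 1 lower (Myl3) at an unadjusted p of 0.05 or less, and the median was -0.01. The 10 skeletal muscle markers summed to 92756 to 124920 FPKM in WT control and 86188 to 89556 FPKM in the skmNrip1-/- libraries, with 0 called and 0 at an unadjusted limma p of 0.05 or less. The 5 blood markers summed to 511 to 764 FPKM against 827 to 996 FPKM, with 3 higher at an unadjusted limma p of 0.05 or less (Hba-a1, Hba-a2 and Hbb-bs, the first 2 near-identical copies) and 0 called. The part of these 3 lists in the values of Acot2, Acot7, Acot11 and Ucp3 was not tested.

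The 10 adipocyte markers, led by Fabp4, Cfd and Lipe, summed to 142 to 210 FPKM in WT control and 166 to 172 FPKM in the skmNrip1-/- libraries, within the WT control range. Among brown adipocyte markers Cidea was at 0.279, 0.442 and 0.434 FPKM in WT control and at 1.41 and 1.37 FPKM in the skmNrip1-/- libraries (log2 fold change 1.64, limma adjusted p = 0.0953), while Elovl3 and Dio2 stayed under 0.5 FPKM in every library. Endothelial markers summed to 135 to 147 FPKM against 120 to 137 FPKM, nerve markers to 29.2 to 41.8 FPKM against 38.6 to 38.7 FPKM and fibroblast markers to 194 to 291 FPKM against 225 to 353 FPKM. None of these lists held a called gene. At an unadjusted limma p of 0.05 or less, 1 nerve marker was higher, Ncam1 (4.599, 1.33 and 1.90 FPKM in WT control, 4.35 and 14.2 FPKM in the skmNrip1-/- libraries), besides Cidea. Ncam1 was chosen for mention after its values were seen, as were the genes named above only for an unadjusted p. Values were given for 3 of the 4 brown adipocyte markers and 7 of the 10 nerve markers, and not for Ucp1, Nefl, Nefm and Nefh. No marker gene with values was at 0 in all libraries.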

How the data were processed

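Total RNA of TA muscle (RNeasy, NEBNext Ultra libraries, paired 150-bp reads) was quantified by the authors with Salmon 1.10.2 on mm10 and summarized per gene with tximport. The deposited values are FPKM per gene and library. How the authors computed FPKM and which annotation release they used is not given in the sources used here. The table also holds log2 fold changes and adjusted p-values of the authors' own DESeq2 1.44.0 comparison, which were not used.

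Because FPKM are not counts, log2(FPKM + 0.1) was fitted with limma 3.58.1 (R 4.3.3, eBayes with intensity trend) over genes whose mean reached 0.5 FPKM, p-values were adjusted by Benjamini-Hochberg over all of these, and the fit was tested on simulated data. Ratios were tested by exact two-sided permutation over all 10 assignments of libraries to groups. Other pseudocounts, minimums, scalings, limma settings, a replicate block and leaving out each library were tried. Named genes were the 9 members, Nrip1, the called, highest and lowest gene of each pathway list, the 3 most abundant of each marker list, and the 3 genes most like the 2 members of lowest p. The members and lists were chosen with earlier results of these data known. Promoters are RefSeq's (GRCm38.p6), and positions and transcripts GENCODE M21. Intervals from fragments were not computed, since PCR copies cannot be told apart.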

Additional observations from a re-analysis of the deposited data

How the results depend on the processing

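Under 16 alternatives, limma called 0 of the members in either direction, with 1 or more at an unadjusted p of 0.05 or less except after rescaling to TPM. Directions of single members that reversed were Acot9 (-0.26 after rescaling to TPM, -0.02 without WT control replicate 1, -0.10 without skmNrip1-/- replicate 1), Acot13 (-0.11 after rescaling to TPM), Ucp2 (0.10 without skmNrip1-/- replicate 2) and Angptl4 (-0.07 without WT control replicate 1). Acot2, Acot7, Acot11 and Ucp3 stayed above 0 under all 14 alternatives that refit them, but most of these could not have turned them. Their skmNrip1-/- libraries lay above all WT control libraries, so leaving out 1 library or changing the pseudocount could not reverse them. Other minimums and eBayes settings left their estimates unchanged. Rescaling to TPM could have reversed them and did not, but on that scale the groups overlapped for Acot7, Acot11 and Ucp3. Leaving out each library in turn gave Acot9 from -0.10 to 0.17, Ucp2 from -0.67 to 0.10 and Angptl4 from -0.070 to 0.90. The Acot2 to Acot1 log2 ratio ran from -0.25 to 0.55 and the Ucp3 to Ucp2 log2 ratio from 0.59 to 1.34 when each library was left out. The causes were not tested.

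With the replicate number as a block, limma again called 0 members, with 3 at an unadjusted p of 0.05 or less, and over all genes 18 higher and 4 lower in place of 45 and 10. No label ties a shared number to a litter or batch, only 2 numbers are shared, and deviations from the group means correlated at 0.0647 and 0.0952 within a number, so the numbers were not taken to pair the libraries. Calls over all genes also changed with the limma trend off (22 higher, 3 lower) and at an adjusted p of 0.01 (14 and 3). Without single libraries they ran from 6 to 55 higher and from 3 to 16 lower. With 3 against 2 libraries, the ratio tests cannot reach 0.05, and Acot1 and Angptl4 rest on the fewest fragments among the members.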
